A study of Mus musculus with 6 samples.

Results

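Dcn, Lum, Bgn, Vcan, Postn, Sparc, Fn1, Tnc, Fbn1 and Fbn2 encode proteoglycans and glycoproteins that connective tissue cells secrete around themselves. All probe sets annotated to these 10 genes were taken from the array, which gave 24 of 45037 non-control probe sets and 9 of the 10 genes, out of 18193 genes with a probe set of their own. Vcan had 8 probe sets, Bgn and Sparc 3 each, Dcn, Fn1, Tnc and Fbn2 2 each, and Lum and Postn 1 each. No probe set carried the name Fbn1 in the annotation used, and that gene is not analysed here.

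The arrays measured sorted cells of the mouse genital tubercle, the bud from which penis or clitoris develops, at 12.5 days post coitum. Reporter-positive cells were compared with reporter-negative cells (3 arrays each), a comparison of urethral epithelium with the other cells of the tubercle. Positive cells, labelled as urethral epithelium, fluoresced because Cre made from the Shh locus (Shhtm1(EGFP/cre)Cjt) had switched on the yellow reporter of the Rosa26 locus (Gt(ROSA)26Sortm3(CAG-EYFP)Hze). Negative cells were the remaining tubercle cells and carried the same 2 alleles, also on a mixed background. Tubercles were dissociated with trypsin before sorting on green and yellow fluorescence. Each array was hybridized with RNA from pooled littermates of both sexes, 3, 5 and 2 embryos for replicates 1, 2 and 3 of either fraction. A Cre-activated reporter stays on in the descendants of a cell, so it marks cells that expressed Shh at any earlier time as well as cells that express it at harvest.

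The matrix around mesenchymal cells is built from a few families. Decorin, lumican and biglycan are small leucine-rich proteoglycans that bind collagen fibrils, and versican is a large chondroitin sulphate proteoglycan that binds hyaluronan. Fibronectin forms the first fibrils to which cells attach through integrins, fibrillins form microfibrils that hold growth factors of the TGF-beta family, and tenascin-C, periostin and SPARC modulate adhesion and matrix assembly. Mesenchyme is the usual main source of these proteins in embryos, but epithelia, endothelium and macrophages can make some of them, fibronectin and SPARC among these.

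After quantile normalization epithelial markers were high in all positive arrays, and mesenchymal markers were high in 1 of them as well. As deposited, positive replicate 3 was dim, and its 20 epithelial markers summed to 77.5 units, against 48.2 to 311.5 units in negative arrays. Shh read 287, 718 and 16.9 signal units as deposited in positive replicates 1, 2 and 3, and 1.31, 18.4 and 2.51 units in negative replicates 1, 2 and 3, a difference of 5.03 on the normalized log2 scale (adjusted p = 0.0122, limma with Benjamini-Hochberg adjustment). The epithelial genes Krt8 and Cdh1 differed by 4.46 (adjusted p = 0.0144, limma) and 2.00 (adjusted p = 0.725, and 0.000499 without positive replicate 3). After normalization 20 epithelial markers summed to 1686, 4364 and 4191 units in positive replicates 1, 2 and 3, against 113 to 153 units in negative arrays. The 20 mesenchymal markers summed to 3532, 469 and 624 units in positive replicates 1, 2 and 3, against 3319 to 4123 units in negative arrays. The sum in positive replicate 1 lay within the range of the negative arrays, and 19 of the 20 mesenchymal markers exceeded the brightest unspiked bacterial control there, compared with 12 in positive replicate 2 and 9 in positive replicate 3, and with 19 or 20 in negative arrays. Positive replicate 3 had a median deposited signal of 0.34 units, against 3.56 to 4.73 units in the other positive arrays and 2.15 to 8.84 units in negative arrays, while hybridization controls averaged 1443 to 1884 units everywhere. Across probe sets it correlated with each other array at a Spearman rho of 0.303 to 0.317, and those 5 correlated with one another at 0.671 to 0.822. The difference of each of the 9 genes is therefore given for the 6 arrays and for the 5 arrays without it. In such mixtures of cells, fewer cells of a type and less RNA per cell cannot be told apart.

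None of the 9 matrix genes passed the test between positive and negative cells in the 6 or the 5 arrays. The median difference of the 9 was -0.55 in 6 arrays, with 7 negative, where all genes had a median of -0.03 and 52.77% were negative. In 5 arrays it was -0.37, with 5 negative. With 1 probe set per gene, the brightest, 0 of 9 genes had an adjusted p under 0.05 in 6 arrays (limma with Benjamini-Hochberg adjustment over 14071 genes), where 0.0142% of all genes did. In the 5 arrays 0 of 9 passed, against 0.602% of 13960 genes, and 0.0501% of genes were called lower. Before adjustment, 1 of the 9, Tnc, had a limma p under 0.05 in each fit, where 5.17% of all genes in 6 arrays and 9.15% in 5 arrays had such a p. Over the 24 probe sets, 20 were bright enough to test in 6 arrays and 21 in 5, and 0 passed in either, against 0.0127% and 0.441% of 31526 probe sets tested (0.0761% called lower in 5 arrays). Before adjustment, limma gave 2 of them a p under 0.05 in each fit, 1 of Tnc and 1 of Fbn2, where 4.25% and 7.6% of all probe sets had such a p. Differences are given as positive minus negative on a log2 scale after quantile normalization, which makes the distribution of signals equal on all arrays. A constant of 16 units was added before the log, which understates the change of dim genes.

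Of the 9 genes, all but Sparc and Fn1 stood below the negative mean in positive replicate 3, and the median was low in replicates 2 and 3 and not in replicate 1. The median of the 9 genes against the negative mean was 0.20, -0.72 and -0.91 on the log2 scale in positive replicates 1, 2 and 3, compared with -0.01, 0.00 and -0.16 for all genes tested. In positive replicate 1, 0 of the 9 genes lay below all 3 negative arrays, where 23.7% of all genes did. In positive replicate 2 it was 5 of 9 against 28.6%, and in positive replicate 3 it was 7 of 9 against 47.7%. Lum and Postn in replicate 2 were not above the brightest unspiked control of that array. The same held for Dcn, Lum, Bgn, Postn and Tnc in replicate 3. These medians and counts therefore rest in part on signals that give only a bound. The 20 mesenchymal markers had medians of -0.07, -1.79 and -2.11 in positive replicates 1, 2 and 3. Their part in the differences of the matrix genes was not tested. Against the negative array of the same pool size, the median of the 9 genes was -0.10, -0.31 and -0.46 in positive replicates 1, 2 and 3, with 5, 6 and 7 of 9 lower, where 49.7%, 48.1% and 56.4% of all genes were lower.

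**Figure D1:**
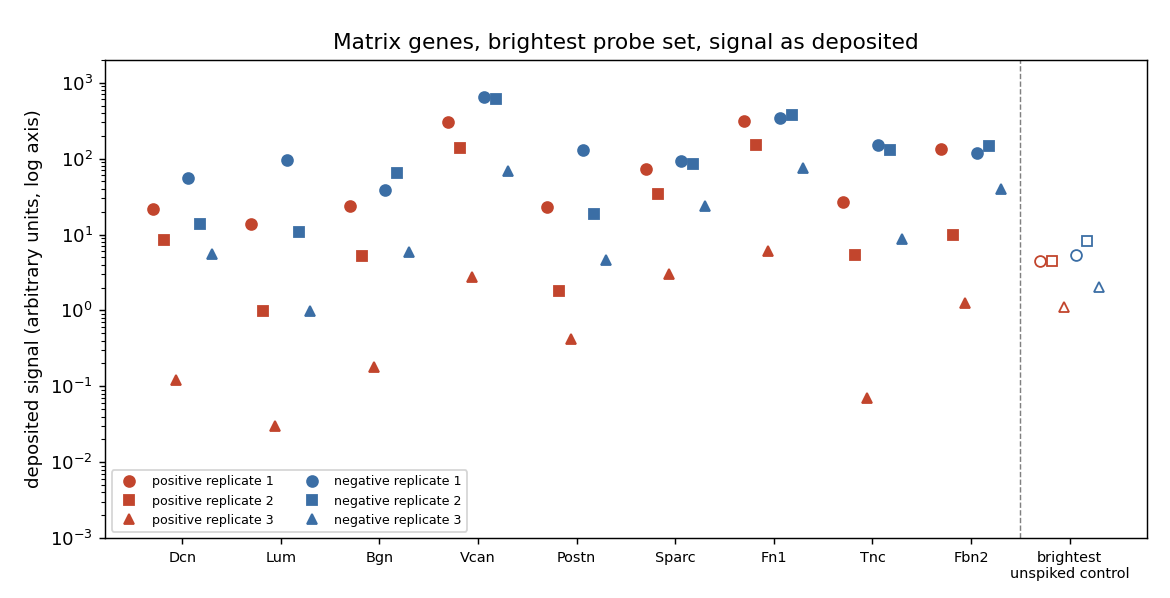
Signal as deposited (arbitrary units, log axis) of the brightest probe set of each matrix gene, by array, positive arrays left of negative arrays; open symbols show the brightest unspiked bacterial control. In positive replicate 3 only Vcan, Sparc, Fn1 and Fbn2 lie above that control, whereas all 9 genes do in positive replicate 1 and in negative replicates 1 and 2.

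Upstream sequence is shown for 4 genes that lay below the negative mean in positive replicates 2 and 3 and whose window held a searched motif. A chromosome was left out when these genes were looked up, but not when all windows were counted. On the others the RefSeq promoter table (GRCm38.p6) held 6 of the 10 genes with 8 start sites. The 150 bases before each start were searched on both strands for 4 motifs, TATAAA (known as the TATA box), for CCAAT, for GGGCGG (the GC box bound by Sp1) and for TGANTCA (the AP-1 site). The 4 windows with a match are printed 5′ to 3′, with matches in capitals.
Vcan, chr13:89742513-89742662, minus strand: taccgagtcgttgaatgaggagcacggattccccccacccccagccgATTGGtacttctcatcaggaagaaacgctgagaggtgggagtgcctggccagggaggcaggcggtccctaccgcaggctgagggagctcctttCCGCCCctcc
Bgn, chrX:73483451-73483600, plus strand: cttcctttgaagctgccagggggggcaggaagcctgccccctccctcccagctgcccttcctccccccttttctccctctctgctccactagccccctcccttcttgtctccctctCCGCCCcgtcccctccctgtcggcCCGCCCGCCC
Postn, chr3:54360957-54361106, plus strand: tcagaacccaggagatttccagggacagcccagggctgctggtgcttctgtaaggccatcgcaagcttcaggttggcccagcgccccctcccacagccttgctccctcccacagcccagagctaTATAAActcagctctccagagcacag
Tnc, chr4:64047016-64047165, minus strand: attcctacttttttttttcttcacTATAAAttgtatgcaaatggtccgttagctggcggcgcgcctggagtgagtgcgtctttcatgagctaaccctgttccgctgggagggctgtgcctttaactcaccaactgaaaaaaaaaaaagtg
TATAAA began at base -26 from the start in Postn and at base -126 in Tnc, and 7.57% of all 32851 promoter windows held it. GGGCGG or its reverse complement stood 3 times in Bgn, where 2 matches overlap, and once in Vcan, and was in 28.6% of all windows. CCAAT, read on the opposite strand, stood in Vcan and in 24.5% of all windows. TGANTCA was in 0 of the 8 windows and in 4.24% of all. These matches describe letters and not bound sites.

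Among the small leucine-rich proteoglycans, decorin and lumican spanned a wider range over the negative arrays than the difference between the group means. Lum, a proteoglycan of collagen fibrils, read 13.9, 0.99 and 0.03 units as deposited in positive replicates 1, 2 and 3, and 94.5, 10.7 and 0.97 units in negative replicates 1, 2 and 3. Its signal exceeded the brightest unspiked control in 3 of the 6 arrays, namely positive replicate 1 and negative replicates 1 and 2. The other arrays give only a bound. With them included, its normalized log2 level was 4.34 ± 0.48 in positive arrays and 4.92 ± 1.07 in negative arrays (SD, n = 3 each). The difference was -0.58 (SE 0.49, 95% interval -1.67 to 0.51, adjusted p = 0.727, limma), and it was -0.45 in 5 arrays and 0.03 without negative replicate 1. The 2 groups overlapped, and replicate 1 was the highest array of each. Dcn, which regulates fibril diameter and binds TGF-beta, read 21.5, 8.54 and 0.12 units in positive replicates and 56.0, 13.7 and 5.48 units in negative replicates. After normalization the difference of Dcn was -0.27 (SE 0.40, adjusted p = 0.825, limma), and it was 0.02 without positive replicate 3 and 0.03 without negative replicate 1. A second Dcn probe set was too dim to test in the 6 arrays and exceeded the brightest unspiked control in 1 of them.

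Biglycan did not pass the test, and its 3 probe sets gave like values. The brightest Bgn probe set read 23.4, 5.17 and 0.18 units in positive replicates 1, 2 and 3, and 38.0, 63.9 and 5.85 units in negative replicates 1, 2 and 3. The 3 probe sets differed by -0.54, -0.55 and -0.65 on the log2 scale in the 6 arrays, with the same adjusted p of 0.77 over all probe sets (limma), and the brightest by -0.37 in 5 arrays. Against the negative mean they stood at -0.14 to 0.05 in positive replicate 1 and at -1.03 to -0.61 in replicates 2 and 3. Bgn signal in positive replicate 3 was below the brightest unspiked control for every probe set, so a level there has only that bound. In positive replicate 2 that control was 4.41 units, and the 2 dimmer probe sets were below it too, at 2.81 and 1.55 units.

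Versican was bright in every array, and its groups overlapped. The brightest Vcan probe set read 307, 136 and 2.74 units as deposited in positive replicates 1, 2 and 3, and 649.9, 606 and 68.0 units in negative replicates 1, 2 and 3. It ranked at percentiles 98.9, 97.9 and 96.6 of all probe sets in the positive arrays and 99.0, 98.3 and 97.6 in the negative arrays. Its normalized level was 7.87 ± 0.67 in positive arrays and 8.13 ± 0.51 in negative arrays (SD, n = 3 each), a difference of -0.26 (SE 0.43, 95% interval -1.22 to 0.70, adjusted p = 0.843, limma). Without positive replicate 3 it was 0.06. Unscaled values gave -1.75 and median centring -1.56 in 6 arrays, and -0.56 and -0.45 in 5 arrays. The adjusted p of Vcan over these scalings was 0.598 or higher (limma). The median of all genes in 6 arrays was -0.48 and -0.28. It is no like-for-like baseline, because the constant added before the log damps the change of genes dimmer than Vcan. The 3 brightest Vcan probe sets differed by -0.26 to -0.17. The dimmest of these read 0.25 units in positive replicate 3, below the brightest unspiked control of 1.12 units there. Of the 5 dim ones 2 could not be tested. Of the other dim ones, 1 had 5.01, 3.45 and 1.83 units in positive replicates and 2.16, 2.65 and 0.28 units in negative replicates. After quantile normalization all 3 positive arrays exceeded all 3 negative arrays there, as for 5.66% of all probe sets. As deposited, positive replicate 3 lay below negative replicates 1 and 2. Within the positive group only replicates 1 and 3 exceeded their brightest unspiked control, and the adjusted p was 0.77 (limma).

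**Figure D2:**
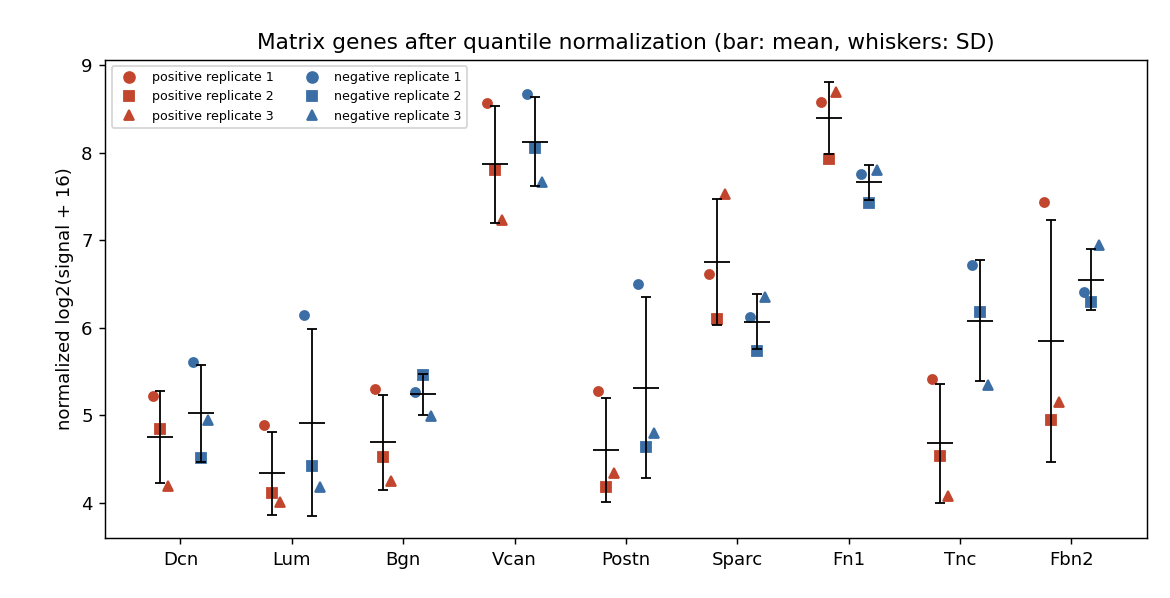
Normalized log2(signal + 16) of the 9 matrix genes (brightest probe set), positive arrays left of negative arrays in each pair; bars are means and whiskers SDs over 3 arrays. Fn1 is the only gene whose groups do not overlap, and Lum, Postn and Tnc spread widely among the negative arrays.

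Tenascin-C had the largest difference of the 9 genes on this scale. Tnc, an antiadhesive glycoprotein of growing mesenchyme, read 26.6, 5.32 and 0.07 units as deposited in positive replicates 1, 2 and 3, and 152.5, 131 and 8.80 units in negative replicates 1, 2 and 3. The normalized level was 4.68 ± 0.68 in positive arrays and 6.08 ± 0.69 in negative arrays (SD, n = 3 each). Positive replicate 1, at 5.42, lay just above negative replicate 3, at 5.35, and the other positive arrays lay below all negative arrays. Against the negative array of the same pool size Tnc stood at -1.29, -1.65 and -1.27 in positive replicates 1, 2 and 3, although its signal in replicate 3 was below the brightest unspiked control. The difference was -1.40 (SE 0.48, 95% interval -2.47 to -0.33, adjusted p = 0.725, limma) in 6 arrays and -1.18 (SE 0.41, adjusted p = 0.351) in 5. Over 18 alternatives to the 6-array fit the difference of Tnc was -2.74 to -0.65, with an adjusted p of 0.00571 to 0.964 (limma), and it passed in 1. That fit weighted each array by its scatter and gave -1.27 (adjusted p = 0.00571, limma), with 3.41% of all genes past the threshold and 1.6% lower. In the 5 arrays it was -1.78 to -0.62 over 16 alternatives, and 2 passed, array weights at -1.36 (adjusted p = 0.0360, limma, 2.08% of all genes past the threshold and 0.702% lower) and a block for pool size at -1.56 (adjusted p = 0.000992, limma, 4.03% past it and 2% lower). It was -0.71 (adjusted p = 0.999, limma) in 5 arrays without positive replicate 2, and as the mean of probe sets -0.75 in 6 arrays and -0.63 in 5. The weight of positive replicate 3 was 0.0973 and that of negative replicate 2 was 5.17, the highest of the 6. The other Tnc probe set did not exceed the unspiked controls on any array and was not tested.

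Fibronectin and SPARC had positive differences after quantile normalization, and in 6 arrays negative ones with unscaled or median-centred values. Fn1, the fibril-forming ligand of integrins, read 309, 149 and 6.02 units as deposited in positive replicates 1, 2 and 3, and 343, 378 and 75.7 units in negative replicates 1, 2 and 3. Its normalized level was 8.40 ± 0.42 in positive arrays and 7.66 ± 0.20 in negative arrays (SD, n = 3 each), a difference of 0.74 (SE 0.34, 95% interval -0.02 to 1.5, adjusted p = 0.725, limma), and 0.60 in 5 arrays (adjusted p = 0.640). After quantile normalization all 3 positive arrays exceeded all 3 negative arrays for Fn1, 1 of the 9 genes, as for 6.29% of all genes. No member gene and no member probe set had all positive arrays below all negative arrays, as 6.99% of genes and 6.53% of probe sets did. In 6 arrays unscaled values gave -1.15 and median centring -0.96, where the median of all genes was itself -0.48 and -0.28. Those medians are no like-for-like baseline for Fn1. The constant added before the log damps the change of dim genes, and Fn1 was among the brightest. In 5 arrays, without the dim one, unscaled values and median centring gave -0.021 and 0.087 for Fn1. Rank within an array does not depend on a scaling factor, and Fn1 stood at percentiles 98.9, 98.1 and 99.0 in the positive arrays and 97.8, 97.1 and 97.9 in the negative arrays. The dimmer Fn1 probe set differed by 0.03 and its groups overlapped.

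Sparc, a collagen-binding matricellular protein, read 74.0, 34.4 and 3.04 units in positive replicates 1, 2 and 3, and 92.2, 85.4 and 23.7 units in negative replicates 1, 2 and 3. The normalized difference was 0.68 (SE 0.46, adjusted p = 0.725, limma) in 6 arrays and 0.30 in 5, but -0.78 with unscaled values and -0.59 with median centring in 6 arrays, and -0.17 and -0.063 in 5. The groups overlapped. Its probe sets disagreed in the dim array, where the brightest read 3.04 units and the second 0.11 units, and the second differed by -0.40 over the 6 arrays and by 0.22 over the 5.

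Periostin, like lumican, was highest in negative replicate 1 and did not pass. Postn, a secreted adhesion protein of mesenchyme and perichondrium, read 23.0, 1.78 and 0.42 units as deposited in positive replicates 1, 2 and 3, and 128, 18.8 and 4.55 units in negative replicates 1, 2 and 3. Positive replicates 2 and 3 were below the brightest unspiked control. The difference was -0.71 (SE 0.52, 95% interval -1.88 to 0.46, adjusted p = 0.725, limma), and it was -0.63 in 5 arrays and -0.10 without negative replicate 1.

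Fbn2, the fibrillin most prominent in embryos, was low in positive replicates 2 and 3 and not in replicate 1. Its brightest probe set read 135, 9.86 and 1.26 units as deposited in positive replicates 1, 2 and 3, and 118, 146 and 39.2 units in negative replicates 1, 2 and 3. Positive replicate 1 was the highest of the 6 arrays after normalization, at 7.44, while replicates 2 and 3 were the lowest, at 4.95 and 5.15. The difference was -0.70 (SE 0.63, 95% interval -2.11 to 0.71, adjusted p = 0.734, limma). It was -0.26 without positive replicate 2, -0.39 without positive replicate 3, -1.79 without positive replicate 1 and -1.59 without negative replicate 3. The other probe set differed by -1.23 (SE 0.53, adjusted p = 0.77 over all probe sets, limma) and passed with array weights, where 2.35% of all probe sets passed and 1.15% were called lower. With array weights the brightest probe set differed by -0.094 (adjusted p = 0.955, limma), and in 5 arrays with weights neither Fbn2 probe set passed. In positive replicate 1 the 2 probe sets stood at 0.89 and -0.18 against the negative mean.

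**Figure D3:**
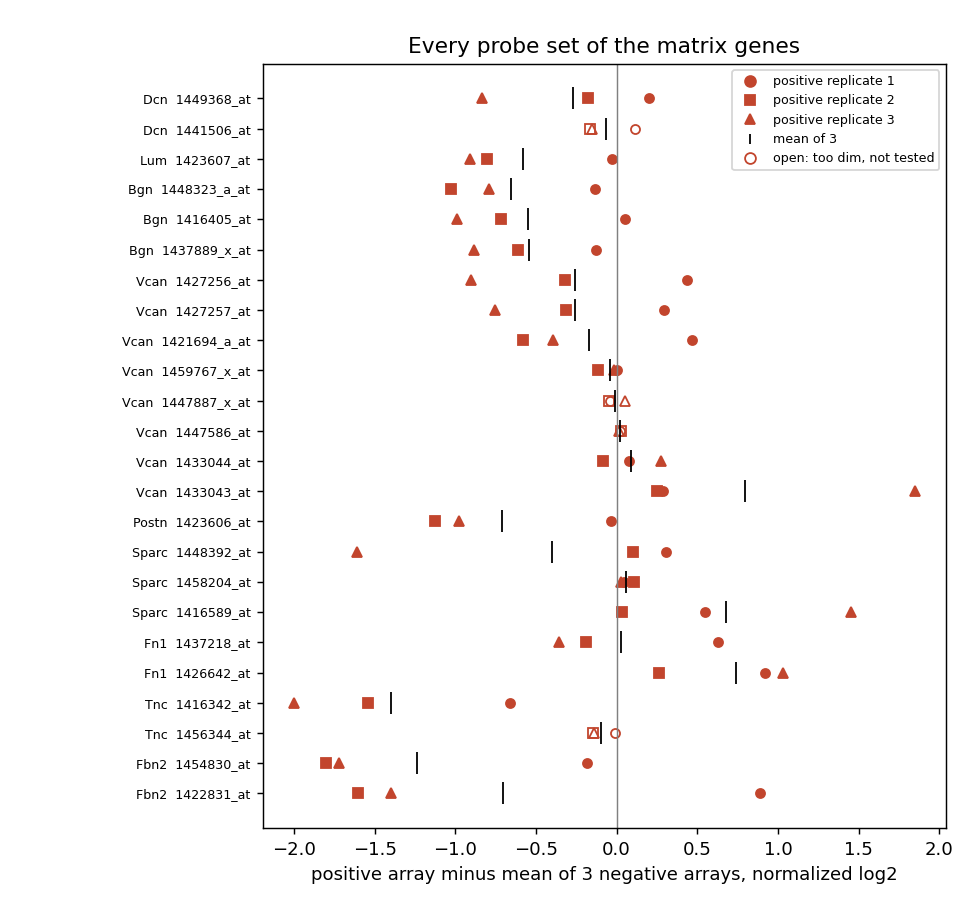
Each positive array minus the mean of the 3 negative arrays (normalized log2) for all 24 probe sets of the 9 genes; the black tick is the mean of the 3 positive arrays and open symbols mark probe sets too dim to test. Positive replicate 1 stays near or above 0 for most probe sets, and only the brighter Tnc probe set is below -0.5 there.

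Negative pools differed among themselves in several of the same genes. Over the 3 negative arrays Lum spanned 1.97 on the log2 scale, Postn 1.86, Tnc 1.36, Dcn 1.10 and Vcan 1.0, compared with a median range of 0.37 over all genes. These ranges ranked at percentiles 99.7, 99.6, 98, 95.1 and 93.4 of 14071 genes. Negative replicate 1 was the highest negative array for all 5 genes. Fn1 spanned 0.37 in the negative arrays, at percentile 50.2, and Bgn, Sparc and Fbn2 ranked at percentiles 62.8, 77.4 and 79.1. Among the positive arrays replicate 1 was also the highest for these 5 genes, and Fbn2 had the widest range at 2.49, percentile 96.7. The replicate 1 arrays of the fractions share a pool size of 3 littermates, and the labels do not say whether they share a litter.

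Within-array ratios, which no scaling factor changes, were computed for all 36 pairs of the 9 genes after the values were seen. A signal not above the brightest unspiked control of its array gives a bound only, and a pair with both signals below it gives no ratio. The ratio of Fn1 to Tnc signal was 11.6 and 28.0 in positive replicates 1 and 2 and at least 5.38 in positive replicate 3, against 2.25, 2.88 and 8.60 in negative replicates 1, 2 and 3. Positive replicates 1 and 2 exceeded all negative arrays, and the bound in replicate 3 did not exceed negative replicate 3. The ratio of Vcan to Tnc was 11.5 and 25.5 in positive replicates 1 and 2 and at least 2.45 in replicate 3, against 4.26, 4.62 and 7.73 in negative replicates. The ratio of Sparc to Tnc was 2.78 and 6.47 in positive replicates 1 and 2 and at least 2.71 in replicate 3, against 0.604, 0.651 and 2.69 in negative replicates, a narrow gap. Dcn and Bgn gave no ratio to Tnc in positive replicate 3. Tnc in positive replicate 2 read 5.32 units, against a brightest unspiked control of 4.41 units. Ratios to Tnc on that array therefore divide by a dim signal. Over 6 arrays 1 of 36 pairs, Sparc to Tnc, had groups that did not overlap, where 3.69% of all pairs of genes had. Over the 5 arrays it was 6 of 36, namely Fn1, Vcan, Sparc, Dcn and Bgn to Tnc and Bgn to Fn1, where 13.1% of all pairs did not overlap. The pairs with Tnc share its signals and are not separate observations. With 2 arrays against 3 an exact two-sided permutation test can give no p below 0.2.

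**Figure D4:**
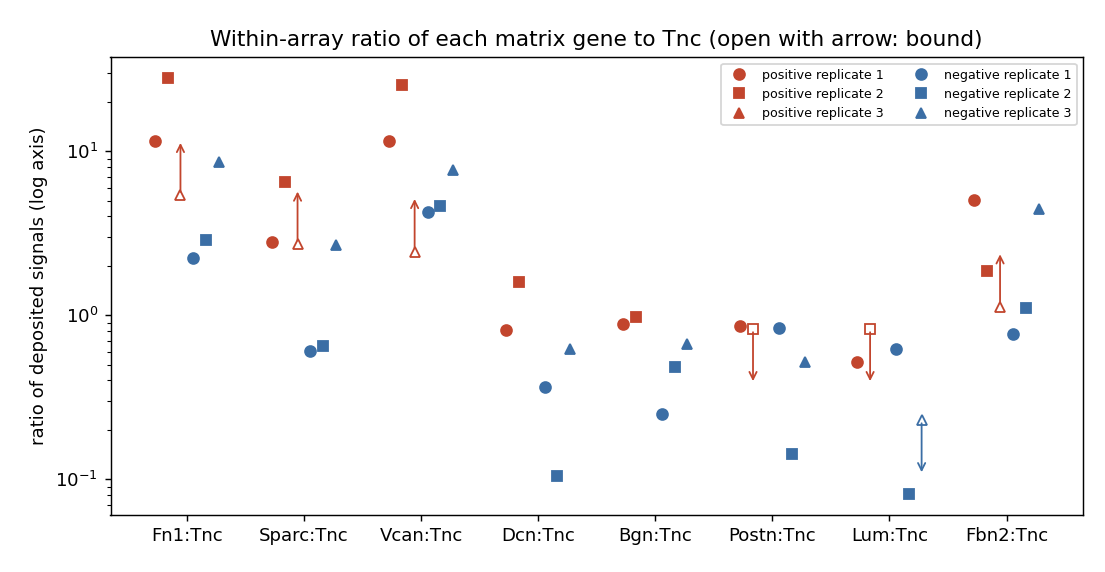
Ratio of the deposited signal of each other matrix gene to that of Tnc on the same array (log axis), positive arrays left of negative arrays; open symbols with arrows are bounds, and arrays where both signals are below the unspiked controls are left out. For Fn1, Sparc, Vcan, Dcn and Bgn positive replicates 1 and 2 lie above the 3 negative arrays.

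Other genes of the matrix were followed in 7 lists, which hold members of the 9 too. Of 98 different genes tested in 6 arrays and 96 in 5, 0 passed over all genes in either fit (limma with Benjamini-Hochberg adjustment), and 13 and 14 had an unadjusted p under 0.05, where 5.17% of all genes in 6 arrays and 9.15% in 5 did. Of 8 tested small leucine-rich proteoglycans 4 had a negative difference, with a median of -0.07. Fmod, or fibromodulin, which binds collagen fibrils as lumican does, had normalized levels of 5.38, 6.92 and 7.84 in positive replicates 1, 2 and 3, against 4.53, 4.58 and 4.76 in negative replicates. Its difference was 2.09 (SE 0.57, adjusted p = 0.725, limma) in 6 arrays and 1.63 (SE 0.39, adjusted p = 0.0903, limma) in 5. With array weights in 6 arrays it was 1.55 (adjusted p = 0.00132, limma), where 3.41% of all genes passed. Unscaled values gave 0.64 (adjusted p = 0.598, limma) and median centring 0.83 (adjusted p = 0.692, limma). Its 3 positive arrays exceeded its 3 negative arrays after quantile normalization, as for 6.29% of all genes. The other highest gene of the list, Chad, differed by 0.46, and the lowest were Ogn, or osteoglycin, at -0.59 and Lum.

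Hyaluronan and lectican genes had a median of -0.09 over 12 tested members, the lowest being Tnfaip6, which modifies hyaluronan, at -0.84 (SE 0.38) and the hyaluronan synthase Has2 at -0.34. The highest were the lecticans Bcan at 0.46 and Ncan at 0.44, for which positive replicate 3 was the highest array. Fibronectin, tenascin and matricellular genes had a median of -0.07 over 18, and 10 were negative. Their ends were Tnc and the adhesion protein Tgfbi at -1.21, and Smoc2, a SPARC relative, at 0.99 and Fn1. Smoc2 levels were 6.97, 7.06 and 8.08 in positive replicates 1, 2 and 3, against 6.64, 6.39 and 6.11 in negative replicates, but its difference was -0.74 with unscaled values and -0.55 with median centring. None of these genes passed in 6 arrays (limma with Benjamini-Hochberg adjustment).

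Microfibril and elastic fibre genes had a median of -0.52 over 16 tested members, 11 of them negative, and their median over the 3 positive arrays in turn was -0.06, -1.02 and -0.69 against the negative mean. In 5 arrays 15 of 16 were negative and the median was -0.41. Lox, which crosslinks collagen and elastin, had levels of 5.97, 4.24 and 4.03 in positive replicates, against 6.78, 5.80 and 6.03 in negative replicates, a difference of -1.46 (SE 0.54), and Emilin1 differed by -1.34 (SE 0.52). The highest, Fbln1 and Mfap5, differed by 0.10 and 0.09, and Fbln1 by -0.43 in 5 arrays. Matrix proteases and inhibitors had a median of -0.39 with 14 of 16 negative. Pcolce, which enhances procollagen processing, stood at 7.28, 4.97 and 4.39 in positive replicates and 6.85, 7.28 and 7.72 in negative replicates, and the gelatinase Mmp2 differed by -1.30 (SE 0.65). The highest were Bmp1, a procollagen protease, at 0.17 and Adamts5 at 0.11. Genes that build glycosaminoglycan chains had a median of -0.10 over 16, with the sulphotransferase Chst15 at -0.69 and the epimerase Dse at -0.67, and at the other end the sulphotransferase Chst11 at 0.52 and Csgalnact1 at 0.15. Receptors of matrix glycoproteins had a median of 0.04 over 13, with the collagen receptor Ddr2 lowest at -1.21 and the integrin Itga8 next at -0.42. The integrins Itga5 and Itga9 were highest at 0.57 each, and positive replicate 3 was the highest array for both. Itgb3, chosen after its values were seen, differed by 0.46 and passed with array weights at 0.62 (adjusted p = 0.0083, limma, with 3.41% of all genes past the threshold). The same 2 positive arrays carried the low values of Lox, Pcolce and Ddr2, and the mesenchymal markers were low in these arrays too.

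Of the other cell type markers, only epithelial ones passed in the 6 arrays (limma). These were Shh and Krt8, 2 of 20 tested, against 0.0142% of all genes called. In 5 arrays 18 of 20 epithelial and 3 of 10 surface ectoderm markers passed as higher (limma), against 0.602% of all genes called. Erythroid markers summed to 1019, 1528 and 686.5 normalized units in positive replicates 1, 2 and 3, against 3220 to 6137 units in negative arrays, with a median difference of -1.82 over 9 tested. In 5 arrays 6 of 8 erythroid markers fell in positive cells (limma with Benjamini-Hochberg adjustment, 0.0501% of all genes called lower), and their part in the levels of the matrix genes was not tested. Endothelial markers summed to 93.7, 54.9 and 171.9 normalized units in positive replicates 1, 2 and 3, against 56.3 to 59.5 in negative arrays, with 0 of 10 tested members past the threshold and 0 at an unadjusted p under 0.05 (limma). Egfl7, chosen after its values were seen, was the highest endothelial marker in positive replicate 3 at a normalized log2 level of 7.08. On that array 2 of 12 markers exceeded the unspiked controls and the median of the list against the negative mean was -0.14. Leukocyte and macrophage markers summed to 179, 196 and 69.2 units in positive replicates, against 30 to 67.6 units in negative arrays. On positive replicate 3, 2 of 12 of them exceeded the unspiked controls and their median against the negative mean was -0.08. In 5 arrays 3 of 11 passed as higher in positive cells (limma), against 0.602% of all genes called. Fn1 and Sparc are known products of both cell types, and the part of these cells in their values was not tested. Of the 20 mesenchymal markers tested 0 passed in either fit and 13 had an unadjusted p under 0.05 in each (limma), against 5.17% and 9.15% of all genes, with median differences of -1.47 in 6 arrays and -1.21 in 5.

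**Figure D5:**
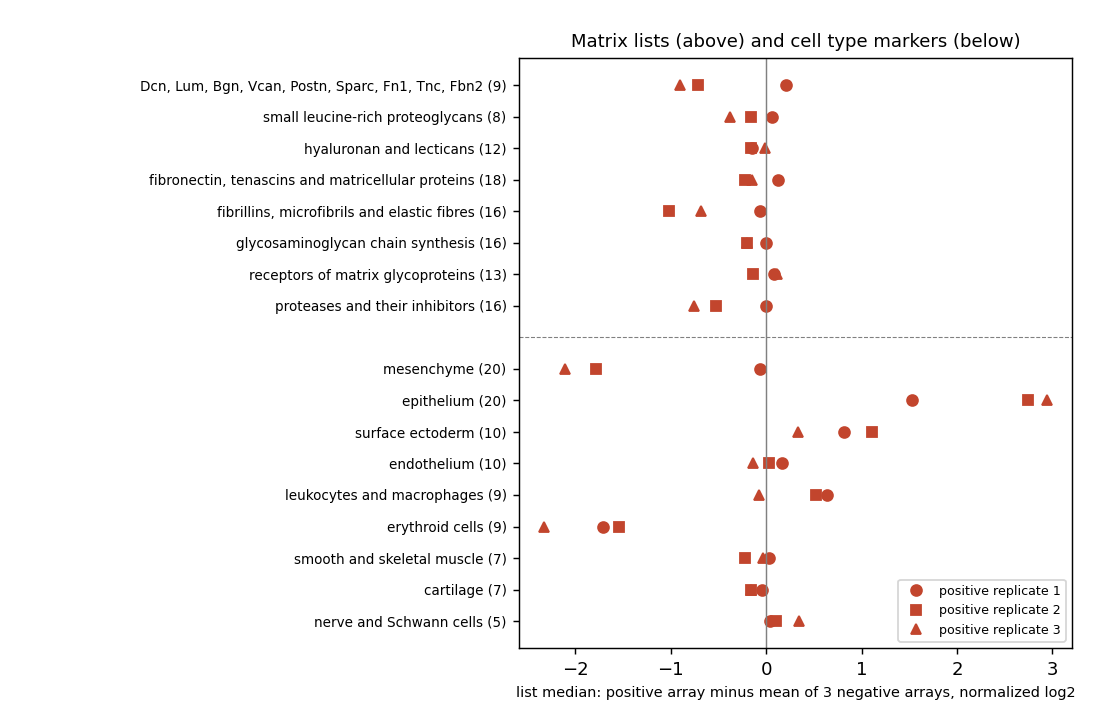
Median of each gene list in each positive array minus the mean of the 3 negative arrays (normalized log2); numbers in brackets are genes tested. The 9 matrix genes lie at 0.20, -0.72 and -0.91 in positive replicates 1, 2 and 3, and the mesenchymal markers at -0.07, -1.79 and -2.11. In replicates 2 and 3 some of the 9 genes were not above the brightest unspiked control.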

How the data were processed

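Total RNA of sorted cells was labelled with an Affymetrix IVT kit, per the labels' protocols. The deposited values are 1 linear signal intensity per probe set and array. For 1 of 6 samples the submitters' processing notes name GCOS. How signals were summarized, scaled or filtered is not given in the sources used here. Of 45101 probe sets 64 controls were set aside. The other 45037 were quantile normalized, transformed to log2(signal + 16), and those with a mean above the 30th percentile went into limma 3.58.1 under R 4.3.3 (lmFit, then eBayes with trend), with a threshold of 0.05 on adjusted p. For genes, the brightest of their probe sets was kept and the percentile was taken over 34945 probe sets with 1 gene. Of these, 34741 were matched to RefSeq identifiers (GRCm38.p6); of the rest of the array 932 had several genes and 9160 were unnamed here. The background level was the brightest of 27 unspiked bacterial probe sets per array. The steps were tested on simulated data.

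Members and lists were chosen with earlier results of these data known. Named genes were the members, the 2 lowest and 2 highest of each matrix list in 6 arrays (up to 4 called genes where any was called), and Shh, Krt8 and Cdh1. Marker lists are given as sums and counts. Replicate numbers follow accession order. Deviations from group means correlated at 0.127, 0.033 and 0.109 between same-numbered arrays, and at -0.131 to 0.063 between differently numbered ones. These values do not settle whether the arrays are paired. Sample titles end in consecutive numbers for the positive and negative array of the same pool size, and what these numbers mean is not stated. The labels do not say that equal pool sizes share a litter, so the main fits used no pairs. A block for pool size was fitted as an alternative. Nothing says that pools are separate litters, so p-values measure the spread between these arrays, and the number of arrays limits precision.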

Additional observations from a re-analysis of the deposited data

How the results depend on the processing

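Array weights and the block for pool size changed the number of matrix genes called. Array weights gave 2 called probe sets in 6 arrays, of Tnc and Fbn2, and 1 in 5 arrays, and 1 called gene in each, Tnc, all lower in positive cells. A replicate block by pool size gave 0 called genes in 6 arrays, but in 5 arrays 3 called probe sets, of Tnc, Lum and Fbn2, and 1 called gene, Tnc at -1.56 (adjusted p = 0.000992, limma, with 4.03% of all genes called), where negative replicate 3 is alone in its block. The count stayed 0 in the other alternatives, and leaving out 1 array gave 0 to 0.
Over all genes, calls ranged over the alternatives from 0 to 480 in 6 arrays, against 2 as reported, and from 0 to 562 in 5 arrays, against 84.

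Among the differences of single genes, none of which passed except Tnc as above, signs turned as follows, and the cause was not tested. In 6 arrays unscaled values gave -0.78 for Sparc and -1.15 for Fn1, and median centring -0.59 and -0.96. Dcn was 0.047 with cyclic loess and 0.18 with array weights, and Vcan 0.0027 with array weights and 0.021 as the mean of probe sets. In 5 arrays unscaled values gave -0.24 for Dcn, -0.56 for Vcan, -0.17 for Sparc and -0.021 for Fn1, and median centring -0.13, -0.45 and -0.063 for Dcn, Vcan and Sparc. Dcn was -0.0087 with a constant of 64, -0.0054 as the mean of probe sets and -0.020 with the replicate block, where Vcan was -0.17. Leaving out 1 array in turn gave -0.51 to 0.025 for Dcn, -1.01 to 0.035 for Lum and -0.61 to 0.060 for Vcan in 6 arrays. In 5 arrays it gave -0.23 to 0.32 for Dcn, -0.91 to 0.21 for Lum, -0.81 to 0.064 for Bgn, -0.32 to 0.44 for Vcan, -1.26 to 0.014 for Postn and -1.95 to 0.93 for Fbn2. Positive replicate 3 and the members under their array's unspiked controls limit what these signals can show.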
